A study of Homo sapiens with 14 samples.

Results

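The integrin and laminin genes are the 26 genes of integrin subunits (18 alpha and 8 beta) and the 12 genes of laminin chains (5 alpha, 4 beta and 3 gamma), 38 of the 58051 genes in the deposited table. They were picked by gene symbol, as protein-coding genes named ITGA, ITGB, LAMA, LAMB or LAMC plus a subunit number or letter. Antisense transcripts, pseudogenes and binding proteins with similar symbols were left out. RNA sequencing measured them in H9, a line of human embryonic stem cells, turned into MGE-like progenitors and collected at day 25. The medial ganglionic eminence (MGE) is the ventral forebrain region where cortical interneurons are born. The groups were CTNNB1 knockout cells (KO, 5 libraries), an inducible CTNNB1 overexpression line given doxycycline (Dox) at 0.1 µg/mL between days 17 and 25 (OE with Dox, 3 libraries), that line without the drug (OE without Dox, 3 libraries) and wild type (WT, 3 libraries). CTNNB1 encodes beta-catenin, which links cadherins to the cytoskeleton and carries the canonical WNT signal to the nucleus. All 4 groups had been treated alike before that: SB431542 (2 µM) and LDN193189 (200 nM) until day 6, then SHH (250 ng/mL) with purmorphamine (0.3 µM) between days 10 and 17, and suspension as neurospheres from day 17. How the knockout was made, which form of CTNNB1 was induced, whether each line is a single clone, and whether libraries of 1 group come from separate differentiations are not given in the sources used here. The p-values below therefore measure only the spread between these libraries, which may be technical, and the drug cannot be told apart from the transgene because no WT library received it.

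Integrins are cell surface receptors made of an alpha and a beta subunit. They bind extracellular matrix outside the cell and the actin cytoskeleton, through adaptors such as talin, inside it. Laminins are trimers of an alpha, a beta and a gamma chain and are the main self-assembling component of basement membranes. In the developing forebrain they line the pial surface and blood vessels, where the end feet of radial glia hold on through integrins and dystroglycan, and they are also found at the ventricular surface where progenitors divide.

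Values are normalized read counts, in which the authors divided each library's reads by a size factor, and 5233270 to 5639725 reads per library were assigned to genes. CTNNB1 itself stood at 2090.3 to 2779 in KO and 23861 to 31290.1 in OE with Dox, against 3084 to 3633 in OE without Dox and 3248 to 4393 in WT, in the order the labels imply, with transcript still present in KO. Of the markers of the labelled cell type, the progenitor gene SOX2 covered 2281 to 3352 over all 14 libraries. DLX2, a regulator of ventral forebrain progenitors, was at 485 to 669 in KO and 28.6 to 83.6 in OE with Dox, against 370.1 to 786 in OE without Dox and 228 to 365 in WT. LHX6, which marks neurons born in the MGE, was at 144 to 345 in KO and 0.922 to 9.23 in OE with Dox, against 120.3 to 416 in OE without Dox and 79.5 to 111 in WT. Genes with a value of at least 10 in at least 3 libraries were tested with limma on log2(value + 1) over all 14 libraries, and a gene is called at an adjusted p under 0.05 (Benjamini-Hochberg over 17102 genes). Fold changes are on that log2(value + 1) scale, which understates the change of low genes. Of all tested genes, 13.8% were called in KO against WT (6.64% higher, 7.15% lower) and 25.7% in OE with Dox against OE without Dox (12.8% higher, 12.9% lower).

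Of the 38 genes, 25 passed the filter, 15 of the integrins and 10 of the laminins. The 13 that did not were ITGA10, ITGA11, ITGAD, ITGAL, ITGAM, ITGAX, ITGB2, ITGB3, ITGB4, ITGB6, ITGB7, LAMB3 and LAMB4, and no library held any of them above 21.3. They include the leukocyte subunits (ITGAD, ITGAL, ITGAM, ITGAX, ITGB2, ITGB7), among which ITGAD had no read in any library, and the hemidesmosome subunit ITGB4. Of those tested, ITGA8 and LAMC3 reached 10 in OE with Dox libraries only, so they had to be high there to be tested at all and no p is given for them in that comparison. LAMA3 had too few values of 10 outside OE with Dox to pass. It too needed its values with Dox, and no p is given for it there either.

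Per kilobase of merged exons, ITGA6, ITGAV, ITGB8 and ITGB1 were the most abundant integrins in WT, at 115, 72.2, 65.9 and 60.95 normalized counts per kb. ITGB1, the common beta subunit that pairs with most alpha subunits, led in all 4 groups (208 in KO, 281 in OE with Dox, 208 in OE without Dox and 238 in WT) when the length of its canonical transcript was used in place of merged exons. Among laminins the order in WT was the same with either length: LAMB2, LAMC1, LAMA1 and LAMA5, at 110.3, 106, 60.9 and 58.3 normalized counts per kb of merged exons. The alpha chains LAMA1 and LAMA5, the beta chain LAMB2 and the gamma chain LAMC1 were thus the laminin transcripts most abundant per length in WT. LAMB1, the other beta chain that assembles with LAMC1, was at 6.61 per kb. LAMA3 and LAMB3, chains of epithelial laminin, averaged 5.38 and 1.16 normalized counts in WT.

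**Figure D1:**
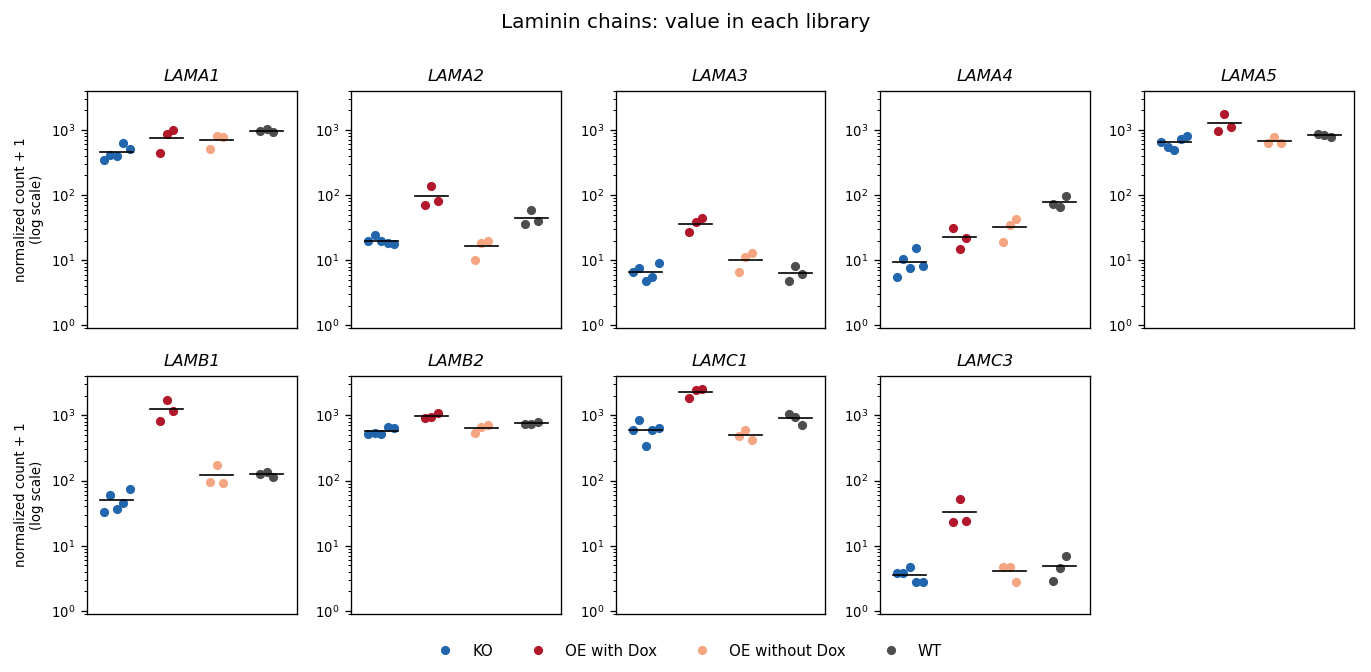
Normalized read count plus 1 (log axis) of 9 laminin chains that passed the filter, 1 point per library, for KO, OE with Dox, OE without Dox and WT, with a line at each group's mean. LAMB1 and LAMC1 are highest in all 3 OE with Dox libraries, and LAMA4 is at 4.62 to 14.4 in the KO libraries, below every WT library.

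The first comparison asks what loss of CTNNB1 does to these genes. In KO against WT 0 of the 25 tested genes were higher (1 at an unadjusted p under 0.05 in limma, 0 by edgeR and 0 by DESeq2) and 10 were lower: 5 of 10 laminins (LAMA1, LAMA2, LAMA4, LAMB1, LAMB2) and 5 of 15 integrins (ITGA4, ITGA5, ITGA6, ITGAV, ITGB8). The background over all tested genes was 6.64% higher and 7.15% lower. The median log2 fold change was -0.56 over the laminins and -0.19 over the integrins, against -0.02 over all tested genes. Without WT replicate 2, 1 was higher (ITGA1, log2 fold change 1.30, adjusted p = 0.042) and 6 were lower, and without OE with Dox replicate 3, which enters only the shared estimate of the spread, ITGA1 was called higher as well (adjusted p = 0.049). Markers of mesenchyme, which makes basement membrane and fibrillar matrix, differed in the same direction: the summed level of 11 such markers was 549.6, 418, 356, 556 and 467 in KO, against 843, 2362 and 999 in WT, and 4 of the 11 were lower. WT replicate 2 was the highest of these. The part of such cells in the laminin and integrin results was not tested, and in bulk RNA fewer cells of a type and less RNA per cell cannot be told apart.

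LAMA4, the alpha chain of vessel and mesenchymal basement membranes (GRCh38 with GENCODE 44 coordinates, here and below: chromosome 6, 112107931 to 112254939, minus strand), showed the largest fall. It was at 4.62, 9.44, 6.61, 14.4 and 7.16 in the 5 KO libraries, against 71.00, 64.4 and 96.2 in the WT libraries. Every KO library lay below every WT library, and the difference passed the test (log2 fold change -3.11, SE 0.34, adjusted p = 5e-06). LAMA1, the alpha chain of the early embryonic and neuroepithelial basement membrane (chromosome 18, 6941742 to 7117797, minus strand), was at 345, 412, 395, 619 and 508 in KO, against 951, 1032 and 912 in WT. The groups did not overlap, with KO replicates 4 and 5 the highest of their group (log2 fold change -1.11, SE 0.24, adjusted p = 0.004). Genes without a symbol overlap 11.1% of its exon bases, and the strand setting of the counting is not given in the sources used here. LAMA2, the alpha chain of muscle and vessel basement membranes, averaged 19.01 ± 2.70 in KO and 43.7 ± 11.8 in WT (SD, n = 5 and 3; log2 fold change -1.14, adjusted p = 0.0081), and its call was lost without WT replicate 2 (adjusted p = 0.065). LAMA5, the alpha chain of most mature epithelial basement membranes, was at 640.1, 553, 487, 711 and 817 in KO, against 879, 848 and 772 in WT. The groups overlapped and it was not called (adjusted p = 0.19).

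Of the beta chains, LAMB1 (chromosome 7, 107923799 to 108003213, minus strand) was at 31.4, 58.5, 35.9, 44.02 and 72.5 in KO, against 124, 132 and 113 in WT. All KO libraries lay below the WT range (log2 fold change -1.39, SE 0.28, adjusted p = 0.0026). LAMB2, the beta chain of the retina, the synapse and the kidney filter (chromosome 3, 49121114 to 49133118, minus strand), was at 508, 528, 522, 672 and 641 in KO, against 734, 748 and 789 in WT. The groups did not overlap, but the step was small (log2 fold change -0.41, SE 0.13, adjusted p = 0.037) and the adjusted p was 0.087, 0.073 and 0.074 without KO replicate 1, 2 or 3, and 0.065, 0.087 and 0.14 without WT replicate 1, 2 or 3. LAMC1, the common gamma chain, was at 604, 842, 335, 587 and 648 in KO, against 1055, 928 and 712 in WT. The groups overlapped and the gene was not called (log2 fold change -0.61, adjusted p = 0.089), although it was without KO replicate 2 (adjusted p = 0.026). LAMA3 averaged 5.70 ± 1.699 in KO and 5.38 ± 1.69 in WT, and LAMC3 2.59 ± 0.833 in KO and 3.84 ± 2.098 in WT, and neither was called.

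Among the alpha integrins, ITGA4, which with ITGB1 binds VCAM1 and fibronectin on migrating neural crest and blood cells (chromosome 2, 181457202 to 181538940, plus strand), was at 6.47, 1.89, 3.78, 1.80 and 4.47 in KO, against 14.2, 19.7 and 22.5 in WT. The groups did not overlap (log2 fold change -2.16, SE 0.41, adjusted p = 0.0011). Exons of CERKL on the opposite strand cover 26.4% of its exon bases. ITGA5, the fibronectin receptor subunit (chromosome 12, 54395261 to 54419266, minus strand), was at 61.9, 116, 51.96, 62.9 and 49.2 in KO, against 257, 138 and 119 in WT. KO replicate 2 and WT replicate 1 were each the highest of their group, and the groups did not overlap (log2 fold change -1.30, SE 0.29, adjusted p = 0.0045). ITGAV, which pairs with ITGB1, ITGB3, ITGB5, ITGB6 and ITGB8 to bind RGD ligands such as vitronectin and latent TGF-beta (chromosome 2, 186590010 to 186680901, plus strand), was at 933, 910.3, 976, 819 and 772 in KO, against 1379, 1485 and 1327 in WT. Every KO library was lower than every WT library (log2 fold change -0.67, SE 0.15, adjusted p = 0.0052).

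ITGA6, a laminin receptor subunit found on neural stem cells (chromosome 2, 172427354 to 172506459, plus strand), was at 575, 618, 344, 599 and 566 in KO, against 754, 759.7 and 799.5 in WT. The groups did not overlap (log2 fold change -0.54, SE 0.16, adjusted p = 0.032), with KO replicate 3 far below the other KO libraries, and the call was lost without WT replicate 1, 2 or 3 (adjusted p = 0.063, 0.079 and 0.11). ITGB8, which with ITGAV activates latent TGF-beta and is expressed by neuroepithelial cells (chromosome 7, 20330702 to 20415754, plus strand), was at 464, 834, 592, 362 and 409 in KO, against 1423, 929 and 647 in WT. The ranges overlapped, and the call (log2 fold change -0.90, SE 0.27, adjusted p = 0.035) was lost without KO replicate 1, 4 or 5 (adjusted p = 0.077, 0.074 and 0.075) and without WT replicate 1 or 2 (adjusted p = 0.18 and 0.083). ITGB1 was at 708, 887, 737, 764 and 782 in KO, against 835, 1039 and 789 in WT, with overlap and no call (log2 fold change -0.19, adjusted p = 0.41). The collagen receptor subunit ITGA2 averaged 280.4 ± 41.00 in KO and 293 ± 51.7 in WT (log2 fold change -0.06, adjusted p = 0.86), and the laminin receptor subunit ITGA7 380.2 ± 55.2 in KO and 467 ± 69.2 in WT (log2 fold change -0.30, adjusted p = 0.31). ITGA1, another collagen receptor subunit, was at 24.9, 24.6, 25.5, 26.9 and 33.1 in KO, against 7.57, 22.3 and 13.9 in WT. It had the largest positive fold change of the integrins without passing the test (log2 fold change 0.95, adjusted p = 0.1), and other genes, PELO among them, share 13.2% of its exon bases. None of the other 6 tested integrins was called. ITGA2B averaged 45.5 ± 8.004 in KO and 31.3 ± 4.97 in WT (log2 fold change 0.52, adjusted p = 0.23). ITGB5 averaged 275 ± 87.9 in KO and 237 ± 80.9 in WT, ITGAE 146 ± 17.4 in KO and 143 ± 3.66 in WT, and ITGA3 63.2 ± 13.5 in KO and 56.8 ± 12.7 in WT. ITGA9 averaged 41.2 ± 8.84 in KO and 38.4 ± 7.76 in WT, and ITGA8 0.738 ± 0.773 in KO and 2.72 ± 3.21 in WT.

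**Figure D2:**
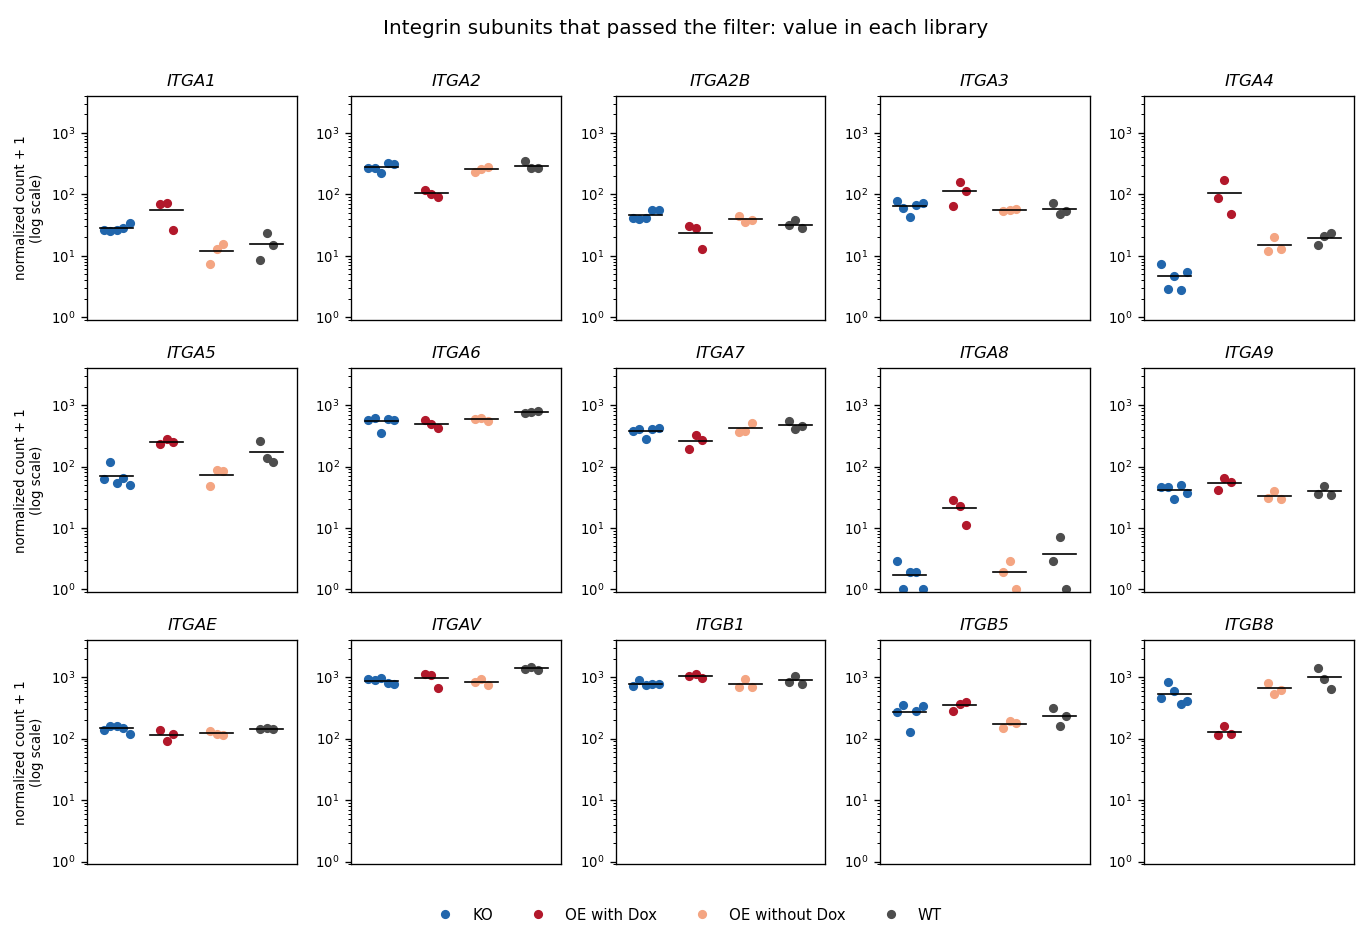
Normalized read count plus 1 (log axis) of the 15 integrin subunits that passed the filter, 1 point per library, for KO, OE with Dox, OE without Dox and WT, with a line at each group's mean. ITGA4 and ITGA5 are lower in KO than in WT and higher in OE with Dox than in OE without Dox, while ITGB8 is at 112 to 158 in OE with Dox, below every other library.

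The second comparison asks what induction of CTNNB1 does. In OE with Dox against OE without Dox, 15 of the 25 tested genes were higher and 3 lower, where 12.8% of all tested genes were higher and 12.9% lower. Of the 15, 3 reached the filter value in OE with Dox libraries only, and without these 3 genes 12 of 22 were higher. LAMA3 stays among the 22, although it also needed its values with Dox to pass the filter. Of the 8 laminins then left, LAMA3 among them, 6 were higher, with LAMA1 and LAMA4 not called, and the median log2 fold change was 1.36. Of the 14 integrins then left, 6 were higher (ITGA1, ITGA3, ITGA4, ITGA5, ITGB1, ITGB5) and 3 lower (ITGA2, ITGA7, ITGB8), with a median of 0.30. The median over all tested genes was 0.02. The 11 mesenchyme markers summed to 5743, 7899.8 and 3054 in OE with Dox, against 562, 2066 and 684 in OE without Dox, and 8 of them were higher. Without OE with Dox replicate 2, the highest of that sum, 12 of the 25 were higher and 4 lower, and without OE without Dox replicate 2, the highest of its group, 14 were higher and 3 lower.

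LAMB1 had the largest fold change of the laminins tested on other grounds than their level with Dox. It was at 823, 1704 and 1172 in OE with Dox, against 92.4, 175 and 90.7 in OE without Dox. The lowest library with Dox was far above the highest without it, and the means differed 10.3-fold (log2 fold change 3.37, SE 0.32, adjusted p = 5e-07). LAMC1 (chromosome 1, 183023420 to 183145592, plus strand) was at 1875, 2465 and 2573 in OE with Dox, against 486, 595 and 421 in OE without Dox. The groups were again well apart (log2 fold change 2.20, SE 0.25, adjusted p = 5.5e-06), and with Dox LAMC1 was the laminin transcript most abundant per kb of merged exons (273). LAMA5 (chromosome 20, 62307955 to 62367312, minus strand) was at 952, 1769.6 and 1092 in OE with Dox, against 625, 786 and 631 in OE without Dox. All libraries with Dox were higher, replicate 2 most (log2 fold change 0.86, SE 0.21, adjusted p = 0.0046). LAMB2 was at 909, 955 and 1089 in OE with Dox, against 540.4, 668 and 699 in OE without Dox, a small step without overlap (log2 fold change 0.63, SE 0.14, adjusted p = 0.0023).

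LAMA2 (chromosome 6, 128883138 to 129516566, plus strand) averaged 95.05 ± 35.5 in OE with Dox and 15.3 ± 5.34 in OE without Dox (SD, n = 3 each; log2 fold change 2.56, SE 0.31, adjusted p = 5e-06). LAMA3, a chain of epithelial laminin, was higher at a low level. LAMA3 averaged 35.5 ± 8.86 in OE with Dox and 9.15 ± 3.27 in OE without Dox, and it needed its values with Dox to pass the filter. The gamma chain LAMC3 averaged 31.8 ± 15.9 in OE with Dox and 3.06 ± 1.08 in OE without Dox, the latter near the floor of 3 reads. It reached 10 in OE with Dox libraries only, so no fold is given. LAMA1 was at 443, 851 and 987 in OE with Dox, against 507, 817 and 771 in OE without Dox. The ranges overlapped and the difference did not pass the test (log2 fold change 0.07, adjusted p = 0.87). LAMA4 averaged 21.9 ± 8.29 in OE with Dox and 31.4 ± 11.96 in OE without Dox (log2 fold change -0.49, adjusted p = 0.39).

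The make-up of the laminin beta chains differed with these levels. LAMB1 made up 30.9% ± 7.6 (SD, n = 3) of the summed beta chain level per kb of merged exons in OE with Dox, against 6.4% ± 2.1 in OE without Dox, with LAMB2 nearly all of the rest. In KO the LAMB1 share was 3.0% ± 0.9, against 5.6% ± 0.6 in WT. With the length of the canonical transcript, the LAMB1 shares were 54.5% ± 8.6 in OE with Dox, 15.6% ± 4.7 in OE without Dox, 7.7% ± 2.2 in KO and 14.02% ± 1.36 in WT. The order of the groups was the same, but LAMB1 was the larger part with Dox with the canonical length and the smaller part with merged exons. Among the alpha chains, per kb of merged exons, LAMA4 made up 0.9% ± 0.3 in KO, against 5.1% ± 1.3 in WT, and LAMA5 59.5% ± 4.6 in KO, against 45.7% ± 1.7 in WT. The larger share of LAMA5 was no rise of the gene itself, which was not called in limma (log2 fold change -0.40, adjusted p = 0.19). LAMC1 made up 97.7% ± 0.9 of the gamma chains in OE with Dox and 98.5% ± 0.8 in OE without Dox. These shares are a description of RNA levels and were not tested.

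**Figure D3:**
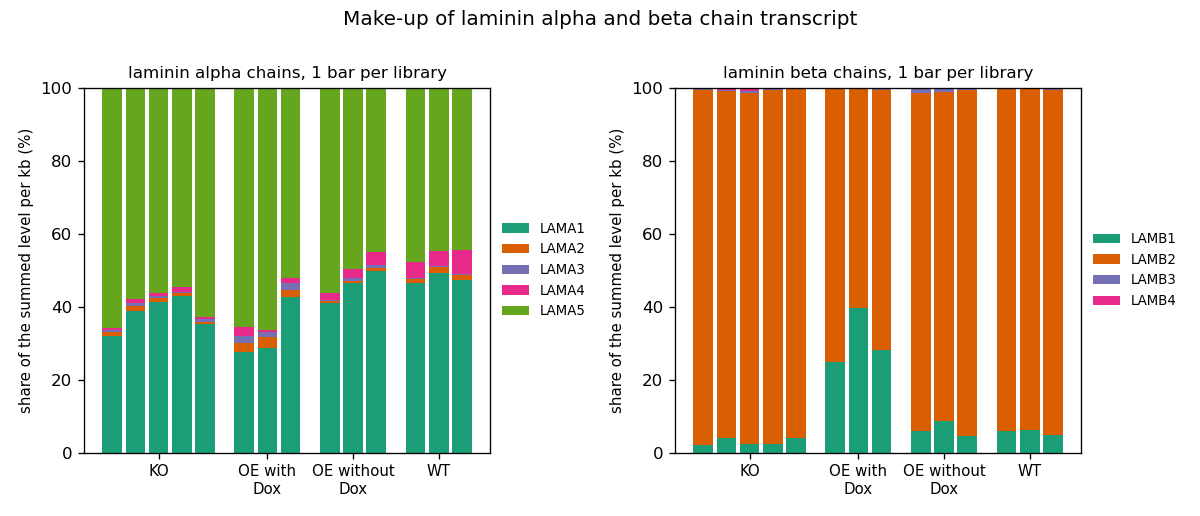
Share (%) of each chain in the summed level per kb of merged exons, for laminin alpha chains (left) and beta chains (right), with 1 bar per library in KO, OE with Dox, OE without Dox and WT. LAMB1 takes a larger part of the beta chain level in the OE with Dox libraries than in any other library.

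The bases just before the annotated starts of 4 genes are shown because LAMB1 and LAMC1 rose together with Dox, LAMA2 is the tested gene with a match to the motif of TCF and LEF factors, the DNA-binding partners of beta-catenin, and ITGA2 fell. The sequences are from RefSeq (GRCh38.p14), 5′ to 3′ on the gene's strand, and bases inside an annotated exon were left off. Capitals mark matches, on either strand, to the TCF and LEF core CTTTGAT, to its variant CTTTGAA, to a further variant shared with SOX factors, CTTTGTT, or to the GC box GGGCGG. No GC box overlaps a TCF and LEF match here.
LAMB1 (chr7:108003214-108003411, minus strand): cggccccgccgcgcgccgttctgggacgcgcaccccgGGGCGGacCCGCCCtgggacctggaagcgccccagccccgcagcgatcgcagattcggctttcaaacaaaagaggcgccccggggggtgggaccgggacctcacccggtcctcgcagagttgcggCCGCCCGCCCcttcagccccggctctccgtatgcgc
LAMC1 (chr1:183023170-183023419, plus strand): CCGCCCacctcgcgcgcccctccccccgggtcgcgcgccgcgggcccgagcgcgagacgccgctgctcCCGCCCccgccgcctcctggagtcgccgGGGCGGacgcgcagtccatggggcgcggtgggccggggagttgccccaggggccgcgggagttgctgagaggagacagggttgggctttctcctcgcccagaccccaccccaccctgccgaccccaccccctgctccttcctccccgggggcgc
LAMA2 (chr6:128882888-128883137, plus strand): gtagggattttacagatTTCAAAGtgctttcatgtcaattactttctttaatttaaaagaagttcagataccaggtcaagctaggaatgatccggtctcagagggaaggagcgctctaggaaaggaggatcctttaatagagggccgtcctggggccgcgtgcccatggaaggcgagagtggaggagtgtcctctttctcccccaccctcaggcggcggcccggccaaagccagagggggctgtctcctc
ITGA2 (chr5:52989102-52989339, plus strand): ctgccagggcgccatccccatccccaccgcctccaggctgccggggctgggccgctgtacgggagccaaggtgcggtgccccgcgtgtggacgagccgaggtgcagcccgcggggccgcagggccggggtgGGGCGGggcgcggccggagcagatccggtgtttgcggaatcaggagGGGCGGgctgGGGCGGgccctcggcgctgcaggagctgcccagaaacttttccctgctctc
RefSeq gave a start for 26 of the 38 genes (33 starts in all). In the 250 bases before the start, CTTTGAT was found in 0 of these 33 windows, CTTTGTT in 0 and CTTTGAA in 2 (LAMA2 and ITGAM), while 2.26%, 4.5% and 3.8% of the 35116 windows of all genes held them. The GC box was in 17 of 33, against 42.6% of all windows. A missing match says only that these letters are not in this window.

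Of the integrins with Dox, ITGB8 showed the largest fall. It was at 112, 158 and 118 in OE with Dox, against 815, 531 and 629 in OE without Dox. All libraries with Dox were below all without (log2 fold change -2.33, SE 0.30, adjusted p = 2.2e-05). ITGA2 (chromosome 5, 52989340 to 53094779, plus strand) was at 116, 100.4 and 91.2 in OE with Dox, against 229.5, 261 and 274 in OE without Dox. The groups were apart (log2 fold change -1.31, SE 0.17, adjusted p = 1.2e-05). ITGA7 (chromosome 12, 55684568 to 55716404, minus strand) was at 193, 322 and 274 in OE with Dox, against 369, 384 and 505 in OE without Dox (log2 fold change -0.69, SE 0.20, adjusted p = 0.014). Its call was lost without OE with Dox replicate 1 (adjusted p = 0.085) and without OE without Dox replicate 3 (adjusted p = 0.077). ITGA1, which lies on the same strand 30130 bases before ITGA2, was instead higher, at 69.3, 71.6 and 24.9 in OE with Dox, against 6.40, 12.03 and 14.5 in OE without Dox (log2 fold change 2.15, SE 0.41, adjusted p = 0.00061).

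ITGA4 was at 87.7, 173 and 47.01 in OE with Dox, against 10.97, 19.4 and 11.8 in OE without Dox. The values with Dox differed among themselves several-fold but none overlapped those without (log2 fold change 2.63, SE 0.45, adjusted p = 0.00024). ITGA5 was at 229.9, 279.7 and 245 in OE with Dox, against 47.6, 86.98 and 82.5 in OE without Dox, with the groups well apart (log2 fold change 1.83, SE 0.32, adjusted p = 0.00032). ITGA8, which with ITGB1 binds nephronectin, was at 27.7, 21.4 and 10.1 in OE with Dox, against 0.914, 1.85 and 0 in OE without Dox, where the 3 libraries held 3 reads in all. No fold is given because its size depends on the pseudocount.

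The smaller rises of ITGB1, ITGB5 and ITGA3 lost their calls when single libraries were left out. ITGB1 (chromosome 10, 32887273 to 33005792, minus strand) was at 1066, 1107 and 979.8 in OE with Dox, against 696, 945 and 691 in OE without Dox (log2 fold change 0.45, SE 0.14, adjusted p = 0.028). Its adjusted p was 0.067 and 0.093 without OE with Dox replicate 1 or 2, and 0.12 and 0.12 without OE without Dox replicate 1 or 3. ITGB5, a vitronectin receptor subunit (chromosome 3, 124761948 to 124901418, minus strand), was at 285, 364 and 395 in OE with Dox, against 149, 189.7 and 177 in OE without Dox (log2 fold change 1.01, SE 0.31, adjusted p = 0.024). That call was lost with the replicate number as a block (adjusted p = 0.065), without a filter (adjusted p = 0.06), without OE with Dox replicate 2 or 3 (adjusted p = 0.068 and 0.089) and without OE without Dox replicate 1 or 3 (adjusted p = 0.091 and 0.056). ITGA3, a laminin receptor subunit (chromosome 17, 50055968 to 50090481, plus strand), was at 63.7, 159 and 111 in OE with Dox, against 52.1, 53.7 and 57.1 in OE without Dox (log2 fold change 0.92, SE 0.29, adjusted p = 0.022). It was not called without OE with Dox replicate 2 or 3 (adjusted p = 0.14 and 0.066) nor without OE without Dox replicate 1 or 2 (adjusted p = 0.066 and 0.055).

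Integrins not called with Dox included some of the most abundant. ITGA6 was at 564, 485 and 417 in OE with Dox, against 601, 608 and 547 in OE without Dox (log2 fold change -0.27, adjusted p = 0.31). ITGAV was at 1144, 1079 and 665 in OE with Dox, against 830.3, 947 and 749.7 in OE without Dox (log2 fold change 0.16, adjusted p = 0.55). The leukocyte subunit ITGAE averaged 116 ± 22.4 in OE with Dox and 121 ± 9.21 in OE without Dox (log2 fold change -0.08, adjusted p = 0.77). Close to the threshold were the platelet subunit ITGA2B (log2 fold change -0.81, adjusted p = 0.051) and ITGA9, a receptor of tenascin (log2 fold change 0.68, adjusted p = 0.063). With the replicate number as a block both were called (adjusted p = 0.041 for ITGA2B and 0.04 for ITGA9).

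The groups without knockout or induction were compared as well. In OE without Dox against WT limma called 0 of the 25 genes higher (0 also at an unadjusted p under 0.05, by edgeR and by DESeq2) and 3 lower (ITGA5, ITGAV, LAMA2), where 5.74% of all tested genes were called, 3.43% higher and 2.32% lower. ITGAV was at 830.3, 947 and 749.7 in OE without Dox, against 1379, 1485 and 1327 in WT, with no overlap (log2 fold change -0.73, SE 0.17, adjusted p = 0.015). It was not called without OE without Dox replicate 1 or 3 (adjusted p = 0.061 and 0.072) or without WT replicate 2 (adjusted p = 0.053). ITGA5 was at 47.6, 86.98 and 82.5 in OE without Dox, against 257, 138 and 119 in WT (log2 fold change -1.20, SE 0.32, adjusted p = 0.035), a call lost without OE without Dox replicate 1 or 3 (adjusted p = 0.18 and 0.059) and without WT replicate 1 or 2 (adjusted p = 0.14 and 0.053). LAMA2 was at 9.14, 17.6 and 19.04 in OE without Dox, against 35.03, 57.2 and 38.98 in WT (log2 fold change -1.49, SE 0.31, adjusted p = 0.0071), not called without OE without Dox replicate 1 (adjusted p = 0.054). LAMA4 (log2 fold change -1.33, adjusted p = 0.0502) and LAMC1 (log2 fold change -0.84, adjusted p = 0.064) missed the threshold narrowly. With the replicate number as a block 5 were lower, LAMA4 (adjusted p = 0.04) and LAMC1 (adjusted p = 0.045) being the additional ones. Without OE without Dox replicate 1 the count was 0, and without OE without Dox replicate 3 or without WT replicate 2 it was 1.

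The same KO libraries set beside OE without Dox had 0 genes higher in limma (2 at an unadjusted p under 0.05, 0 by edgeR and 0 by DESeq2) and 3 lower (ITGA4, LAMA4, LAMB1), where 2.11% of all tested genes were called, 0.351% higher and 1.75% lower. LAMA4 averaged 8.44 ± 3.73 in KO and 31.4 ± 11.96 in OE without Dox (log2 fold change -1.79, SE 0.34, adjusted p = 0.0065), LAMB1 48.5 ± 16.9 in KO and 119 ± 48.2 in OE without Dox (log2 fold change -1.28, SE 0.28, adjusted p = 0.021), and ITGA4 3.68 ± 1.95 in KO and 14.1 ± 4.67 in OE without Dox (log2 fold change -1.75, SE 0.41, adjusted p = 0.026). Without OE without Dox replicate 2 none of the 3 was called (adjusted p = 0.059 for LAMA4, 0.18 for LAMB1 and 0.21 for ITGA4). Without OE without Dox replicate 3 only LAMB1 was (adjusted p = 0.058 for LAMA4 and 0.066 for ITGA4). The ITGA4 call was also lost without KO replicate 2 or 4 (adjusted p = 0.066 and 0.066) and without OE without Dox replicate 1 (adjusted p = 0.053), with edgeR (adjusted p = 0.069) and with a pseudocount of 5 (adjusted p = 0.08). Fold changes of ITGA5 (-0.10), ITGA6 (-0.14), LAMB2 (-0.15) and LAMA1 (-0.61) were smaller in size than against WT and not called, and ITGAV (0.07) and LAMA2 (0.35) had the opposite sign without being called. Not called but positive were ITGA1 (log2 fold change 1.28, adjusted p = 0.098), which was called without OE with Dox replicate 3 (adjusted p = 0.035), and ITGB5 (log2 fold change 0.60, adjusted p = 0.56), which was called without KO replicate 3 (adjusted p = 0.034).

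In OE with Dox against WT, 10 of the 25 were higher and 6 lower, where 20.5% of all tested genes were called, 10.4% higher and 10.1% lower. Among the higher ones were ITGA1, ITGA3, ITGA4, LAMA2, LAMA3, LAMB1 and LAMC1, the 7 left without the genes that reached 10 in OE with Dox libraries only. LAMA3 among these 7 also needed its values with Dox to pass the filter. The lower ones were ITGA2, ITGA6, ITGA7, ITGAV, ITGB8 and LAMA4. LAMB1 averaged 1233 ± 444 in OE with Dox and 123 ± 9.87 in WT (log2 fold change 3.26, SE 0.32, adjusted p = 9.1e-07). ITGB8 averaged 129 ± 25.1 in OE with Dox and 999.5 ± 393 in WT (log2 fold change -2.88, SE 0.30, adjusted p = 3.1e-06), and LAMC1 2305 ± 376 in OE with Dox and 898 ± 173 in WT (log2 fold change 1.36, SE 0.25, adjusted p = 0.00078). ITGA5, called with Dox against the uninduced line, averaged 252 ± 25.5 in OE with Dox and 171 ± 75.3 in WT and was not called (log2 fold change 0.63, adjusted p = 0.19), except without WT replicate 1 (adjusted p = 0.038). With the compared groups alone ITGA3 (adjusted p = 0.083) and ITGAV (adjusted p = 0.067) were not called. Calls lost when 1 library was left out were those of ITGA3, ITGA6, ITGAV and LAMA2, and LAMA5 (log2 fold change 0.56, adjusted p = 0.067) was gained without OE with Dox replicate 1 (adjusted p = 0.022). Without OE with Dox replicate 3 the adjusted p was 0.093 for ITGA3, 0.067 for ITGA6 and 0.14 for ITGAV. Without OE with Dox replicate 2 it was 0.21 for ITGA3 and 0.12 for LAMA2, without WT replicate 1 0.07 for LAMA2, without WT replicate 2 0.13 for ITGA3 and 0.073 for ITGAV, and without WT replicate 3 0.089 for ITGA3 and 0.06 for LAMA2. These comparisons share libraries with each other, so their values are given side by side only.

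Over the 4 groups, the means of LAMB1 were, low to high, 48.5 ± 16.9 in KO, 119 ± 48.2 in OE without Dox, 123 ± 9.87 in WT and 1233 ± 444 in OE with Dox. The step between OE without Dox and WT did not pass the test (adjusted p = 0.9). ITGA4 had the same order, 3.68 ± 1.95 in KO, 14.1 ± 4.67 in OE without Dox, 18.8 ± 4.23 in WT and 103 ± 64.2 in OE with Dox, and its step between OE without Dox and WT did not pass either (adjusted p = 0.7). The means of LAMA4 were, low to high, 8.44 ± 3.73 in KO, 21.9 ± 8.29 in OE with Dox, 31.4 ± 11.96 in OE without Dox and 77.2 ± 16.8 in WT. Those of ITGB8 were 129 ± 25.1 in OE with Dox, 532 ± 189 in KO, 658 ± 144 in OE without Dox and, highest, 999.5 ± 393 in WT, where neither KO against OE without Dox (adjusted p = 0.88) nor OE without Dox against WT (adjusted p = 0.36) passed the test.

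LAMB4, which lies 20334 bases from LAMB1 on the same strand of chromosome 7, averaged 1.85 ± 2.44 in OE with Dox and 1.84 ± 1.59 in OE without Dox.

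Partners of laminin in the basement membrane were listed alongside. Of 21 tested, 9 (42.9%) were higher and 3 (14.3%) lower in OE with Dox against OE without Dox (median log2 fold change 0.57). In KO against WT 3 (14.3%) were higher and 5 (23.8%) lower (median 0.04). The shares of all tested genes, here and for the lists below, were 12.8% higher and 12.9% lower with Dox and 6.64% higher and 7.15% lower in KO. FREM2, which anchors embryonic epithelia to their basement membrane, averaged 5839.5 ± 519 in OE with Dox and 371 ± 112 in OE without Dox (log2 fold change 4.01, adjusted p = 5.3e-09). Its partner FREM1 averaged 531 ± 267 in OE with Dox and 59.3 ± 24.9 in OE without Dox (log2 fold change 3.10, adjusted p = 1.1e-05), and was lower in KO (29.2 ± 3.87) than in WT (152 ± 92.2; log2 fold change -2.19, adjusted p = 0.00027). NID2, a nidogen that ties laminin to collagen IV, did the same: 333 ± 106 in OE with Dox against 28.1 ± 8.49 in OE without Dox (log2 fold change 3.52, adjusted p = 4.7e-07). It was at 11.9 ± 1.93 in KO against 44.2 ± 25.9 in WT (log2 fold change -1.67, adjusted p = 0.00097). COL18A1 averaged 2789 ± 724 in OE with Dox and 772 ± 69.4 in OE without Dox (log2 fold change 1.82, adjusted p = 6.3e-06). NTN4, a netrin that binds laminin gamma chains, ran the other way, at 47.8 ± 11.9 in OE with Dox against 179.6 ± 26.6 in OE without Dox (log2 fold change -1.91, adjusted p = 1.9e-05). It was at 225 ± 64.4 in KO against 83.3 ± 20.8 in WT (log2 fold change 1.41, adjusted p = 0.00031).

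Of 32 tested ligands of integrins, KO against WT gave 2 (6.2%) higher and 11 (34.4%) lower (median -0.90), and 11 (34.4%) were higher and 4 (12.5%) lower in OE with Dox against OE without Dox (median 0.23). The list shares COL1A1, COL1A2, COL3A1, FBN1 and POSTN with the mesenchyme markers. The fibrillins FBN2 and FBN1 averaged 141 ± 41.4 and 108 ± 19.1 in KO, against 927 ± 60.3 and 351 ± 59.4 in WT (adjusted p = 6.2e-08 and 6.1e-06). TGFB2, a TGF-beta ligand, averaged 6.11 ± 3.83 in KO and 121 ± 59.9 in WT (log2 fold change -4.20, adjusted p = 9.2e-05). L1CAM and ADAM23, found on neurons, were higher in KO (1362 ± 252 and 628 ± 101) than in WT (697 ± 163 and 308 ± 25.1; adjusted p = 0.0016 and 4e-05). FBN1 averaged 899 ± 216 in OE with Dox, against 233 ± 59.8 in OE without Dox (log2 fold change 1.95, adjusted p = 1.7e-06). TNC, the tenascin bound by ITGA9, averaged 339.8 ± 171 in OE with Dox against 45.1 ± 20.8 in OE without Dox (log2 fold change 2.88, adjusted p = 0.00059), and TGFBI 167 ± 99.98 in OE with Dox against 18.4 ± 11.5 in OE without Dox (log2 fold change 3.07, adjusted p = 0.00053).

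Of 35 tested adaptors and kinases on the cytoplasmic side, KO against WT gave 1 (2.9%) higher and 4 (11.4%) lower (median -0.15), and 9 (25.7%) were higher and 1 (2.9%) lower with Dox (median 0.29). TLN1, the talin that activates integrins, averaged 385 ± 79.7 in KO and 596 ± 15.03 in WT (log2 fold change -0.66, adjusted p = 0.016). It averaged 1015 ± 243 in OE with Dox and 434 ± 47.97 in OE without Dox (log2 fold change 1.20, adjusted p = 0.00014). KANK1, a talin-binding protein, averaged 866 ± 179 in OE with Dox and 121 ± 10.8 in OE without Dox (log2 fold change 2.81, adjusted p = 3.7e-08). The tetraspanin CD9 averaged 287 ± 29.7 in OE with Dox and 23.8 ± 7.17 in OE without Dox (log2 fold change 3.57, adjusted p = 2e-06). CD9 was also lower in KO (10.6 ± 5.15) than in WT (48.5 ± 15.6; log2 fold change -2.18, adjusted p = 0.00028). Of 17 genes of dystroglycan, its glycosylation and the laminin receptor BCAM, limma called 0 in KO against WT (3 at an unadjusted p under 0.05, 0 by edgeR and 0 by DESeq2), and 3 (17.6%) were higher with Dox (BCAM, POMGNT1 and B4GAT1). BCAM, which binds LAMA5, averaged 349 ± 74.9 in OE with Dox and 159 ± 55.2 in OE without Dox (log2 fold change 1.16, adjusted p = 0.00084). DAG1, the dystroglycan gene, averaged 606 ± 99.3 in KO and 655 ± 91.5 in WT (log2 fold change -0.12, adjusted p = 0.69). It averaged 652 ± 93.4 in OE with Dox and 595 ± 64.00 in OE without Dox (log2 fold change 0.13, adjusted p = 0.62).

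Markers of other cell types also differed between the groups. All 11 mesenchyme markers had reads in every group, and COL3A1 among them ranged over 481 to 3175 in OE with Dox, 35.7 to 812 in OE without Dox, 5.37 to 28.7 in KO and 15.1 to 1023 in WT. OE with Dox replicate 2, the highest in the mesenchyme sum, was also the highest of its group for LAMA2, LAMA5, LAMB1, ITGA1, ITGA3, ITGA4, ITGA5 and ITGB1. LAMC1, LAMB2 and ITGB5, which were higher with Dox too, were highest in replicate 3, the lowest in that sum, and ITGA8 was highest in replicate 1. The 8 epithelium markers summed to 360.1 to 840.2 in OE with Dox, against 123 to 242 in OE without Dox, and to 93.5 to 139 in KO, against 178 to 303 in WT. The 9 endothelium markers summed to 109 to 182 in OE with Dox, against 32.01 to 66.6 in OE without Dox, and to 12.01 to 25.5 in KO, against 50.2 to 89.2 in WT. Of the 3 endothelium markers tested, KDR and CLDN5 were called, both higher with Dox and lower in KO against WT. PECAM1, CDH5 and VWF, which define endothelium, did not exceed 1.85, 6.51 and 3.46 in any library. The 11 blood and microglia markers summed to 74.7 to 112 in OE with Dox, against 6.40 to 22.7 in OE without Dox, and to 5.39 to 15.2 in KO, against 10.7 to 20.8 in WT. All 11 averaged under 10 in every group but OE with Dox, where 9 did. Only LAPTM5 and RUNX1 were tested, and both were higher with Dox and not called in KO against WT. The 7 choroid plexus markers summed to 3313 to 4187 in OE with Dox, against 1383 to 1886 in OE without Dox, and to 1391 to 2075 in KO, against 1073 to 1948 in WT. OTX2, which progenitors also express, made up most of that sum. The markers called with Dox were OTX2, CLIC6 and MSX1, all higher. In KO CLIC6 (log2 fold change -2.05, adjusted p = 0.0029) and MSX1 (log2 fold change -2.88, adjusted p = 3.2e-06) were lower and OTX2 was not called (log2 fold change 0.40). The 8 neural crest and Schwann cell markers summed to 176 to 394 in OE with Dox, against 783 to 1279 in OE without Dox, and to 881 to 1679.5 in KO, against 989 to 1164 in WT, with SOX10 at 0 in all libraries. The 7 neuron markers summed to 5001 to 5756 in OE with Dox, against 15676 to 17579 in OE without Dox, and to 15689 to 19516 in KO, against 8311 to 9881 in WT. The 6 glia markers, which radial glia share, summed to 4184 to 6925 in OE with Dox, against 447 to 773 in OE without Dox, and to 478 to 748 in KO, against 1348 to 1942 in WT. Of these 6, 4 averaged under 10 in every group. With Dox SLC1A3 was higher (log2 fold change 4.64, adjusted p = 3.1e-08) and FABP7 lower (log2 fold change -1.65, adjusted p = 7.6e-05), and in KO both were lower (adjusted p = 4.1e-06 and 0.0028). The part of these cells in the results was not tested either.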

How the data were processed

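Bulk RNA was sequenced from 14 libraries, and a table of 58051 genes was deposited. Its values are coverage signal per gene: read counts that the authors divided by 1 size factor per library. TopHat2 2.1.1, HTSeq 0.9.1, DESeq2 and R 3.4.0 on hg38 are named in the submitters' processing notes. The annotation release and the strand setting are not given in the sources used here. At low values each library's values are whole multiples of 0.866 to 0.947, and dividing by that step recovered whole reads for 100% of values (tolerance 0.01), 5233270 to 5639725 per library in genes. A floor of 3 reads is 2.60 to 2.84 normalized counts, which covers counting error only. GENCODE 44 named 56948 genes and gave coordinates and exon lengths.

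Tests used limma 3.58.1 in R 4.3.3 on log2(value + 1), with an intensity trend and robust empirical Bayes moderation, over all 14 libraries with 4 group means (10 residual degrees of freedom). Genes with at least 10 in at least 3 libraries were tested (17102), two-sided, and p-values were adjusted by Benjamini-Hochberg in every comparison separately, with 0.05 as the threshold. The script was tested on simulated data. Alternatives were pseudocounts of 0.5 and 5, no filter, a filter at 50, TMM scaling, moderation that is not robust, the replicate number as a block (6 residual degrees of freedom), edgeR 4.0.16 and DESeq2 1.42.0 on the recovered reads, the compared groups alone, and each library left out in turn. The length of the canonical transcript in place of merged exons was chosen as an alternative after seeing the data.

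Groups and replicate numbers come from the labels. Deviations of same-numbered libraries correlated at 0.22, 0.25 and 0.40 between OE with Dox and OE without Dox and at 0.22, 0.17 and 0.28 between OE without Dox and WT. On these values alone the numbers were taken to pair those libraries, since the labels do not say what a number marks. Differently numbered libraries were not correlated, so the values have no baseline and cannot show that the libraries were paired. Between OE with Dox and WT the correlations were 0.056, 0.037 and 0.25. That comparison was not taken as paired, although the other pairings would imply it. The correlations were 0.24, -0.29 and 0.13 between KO and WT. Between KO and OE without Dox they were 0.22, 0.049 and 0.10, and neither KO comparison was taken as paired. The main tests used no pairing, and the block is an alternative. The genes and lists were chosen with earlier results of these data known. Values in every library are given for genes called in KO against WT or with Dox that average at least 100 in a group and for the 4 integrins and 4 laminins highest per kb in WT. Other genes are given by means, with a few per library because their groups stand apart. Of each partner list at most 6 called genes per comparison are named, by adjusted p, and DAG1 was added as the dystroglycan gene itself. LAMB3, LAMB4 and the 11 integrins under the filter were not tested. Values of 1 tested laminin gene are not reported here, and it stays in the counts.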

Additional observations from a re-analysis of the deposited data

Results flagged for a closer look

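Of the 26 sets of 5 KO values examined, 5 held a library that stood apart from the rest of its group by Dixon's criterion, where chance gives about 1 in 20. KO replicate 3 was low for ITGA6, at 344 normalized counts against 566 to 618 in the other KO libraries, and for ITGA7, at 284 against 384 to 421. KO replicate 2 was high for ITGA5, at 116 against 49.2 to 62.9 in the other KO libraries, and for LAMA2, at 23.6 against 17.00 to 18.9. KO replicate 5 was high for ITGA1, at 33.1 against 24.6 to 26.9. The groups of 3 libraries were not examined in this way.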

How the results depend on the processing

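No called fold change reversed. Of the fold changes recomputed under the alternatives, 2853 kept their call or its absence, 70 lost a call and 37 gained one, while 40 that were not called changed sign. The filter at 50 left 9 genes higher in OE with Dox against OE without Dox and 4 higher in OE with Dox against WT, since low genes are then not tested. In OE without Dox against WT, 5 were lower with the replicate block, with DESeq2 and with the compared groups alone. In KO against OE without Dox, 1 was higher without a filter and with the compared groups alone. Leaving out 1 library at a time gave 0 to 1 higher and 6 to 10 lower in KO against WT, 0 to 4 lower in OE without Dox against WT, and 0 to 1 higher and 0 to 3 lower in KO against OE without Dox. It gave 12 to 16 higher and 2 to 4 lower in OE with Dox against OE without Dox, and 8 to 11 higher and 4 to 6 lower in OE with Dox against WT. The cause of these losses was not tested.

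For the comparisons that were not taken as paired, the block with the replicate number moved single calls. In KO against WT, ITGB8 was lost (adjusted p = 0.18 in limma) and LAMA5 was gained (0.031). In KO against OE without Dox, ITGA4 was lost (0.099) and LAMA1 gained (0.026), and in OE with Dox against WT, ITGA3 was lost (0.054) while LAMA5 (0.025) and LAMB2 (0.024) were gained. In the comparisons taken as paired the block changed the calls of ITGB5, ITGA2B, ITGA9, LAMA4 and LAMC1 and no other. LAMB2 in KO against WT also missed the threshold with edgeR (0.052), no filter (0.072) and the compared groups alone (0.057), ITGB8 with no filter (0.12) and the compared groups alone (0.063), and ITGA6 with the compared groups alone (0.055). Counts near the floor limit ITGA4 and ITGA8 in KO and the 13 untested genes.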
